A study of Mus musculus with 2 samples.

Results

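The miR-30 genes are a family of microRNA (miRNA) genes whose main products share 1 seed, and they were taken here by gene name: Mir30a, Mir30b, Mir30c-1, Mir30c-2, Mir30d and Mir30e, which are 6 of the 1973 miRNA gene rows measured. The samples were single mouse hearts of strain B6NCrl from postnatal day 0, with no treatment and no genotype beyond the strain given, and sex was not collected. The only group held 2 hearts from the litter of pregnant female 1: replicate 1 is pup 2, replicate 2 is pup 3, and each gave 1 small RNA library from total RNA, with an insert size below 30 nt. There was no control group and no condition to compare, so the data answer at what level each gene of the family was read, how the genes of a locus stood to each other, and how far 2 littermates differed. Whole hearts hold several cell types, and a gene read in few cells cannot be told apart from one read at a low level in many.

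A miRNA is cut from a hairpin precursor to a mature strand of about the length of the inserts sequenced here, and bases 2 to 8 of that strand, the seed, pair with target messenger RNAs and lead to their repression. Each hairpin can give a strand from its 5′ arm and one from its 3′ arm, named 5p and 3p. In the heart the miR-30 family is known for repressing Ctgf, which encodes connective tissue growth factor, a secreted promoter of fibrosis. The genes lie as pairs at 3 loci, and the pair on chromosome 4 sits in an intron of Nfyc, which encodes a subunit of the transcription factor NF-Y.

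The mature strands show what the genes share and what can tell their reads apart. The RefSeq table on GRCm38.p6 held entries for 4 of the 6 genes, Mir30e, Mir30a, Mir30c-1 and Mir30c-2; Mir30b and Mir30d are given by name. The 5p strands are written 5′ to 3′ with the seed in capitals, followed by that of Mir384, an X-linked gene that holds the same seed but was not among the genes taken by name.
mmu-miR-30e-5p: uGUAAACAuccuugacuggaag
mmu-miR-30a-5p: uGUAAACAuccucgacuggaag
mmu-miR-30c-5p: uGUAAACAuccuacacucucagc
mmu-miR-384-5p: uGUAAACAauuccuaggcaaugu

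The seed stood in 5 of 1738 mature entries of the table, or 0.288%, namely the strands of these 4 genes of the family, with miR-30c-5p entered once for each of its 2 genes, and miR-384-5p. Positions are counted from 1 at the 5′ end. From miR-30e-5p to miR-30a-5p the single difference over 22 nt was U13C, outside the seed. From miR-30e-5p to miR-30c-5p, 5 of the first 22 positions differed, the first of them at position 13. The strand miR-30c-5p is the same in Mir30c-1 and Mir30c-2, letter for letter.

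The 3p strands fell into 2 seed groups and are shown because they hold the differences between the copies.
mmu-miR-30e-3p: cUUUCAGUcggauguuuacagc
mmu-miR-30a-3p: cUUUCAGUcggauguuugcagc
mmu-miR-30c-1-3p: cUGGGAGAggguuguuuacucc
mmu-miR-30c-2-3p: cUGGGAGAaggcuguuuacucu

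From miR-30e-3p to miR-30a-3p the difference was A18G. From miR-30c-1-3p to miR-30c-2-3p there were 3 differences, G9A, U12C and C22U. The deposited counts were per gene, so reads of the 5p and the 3p strand of 1 hairpin were not separated.

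The hairpins of the miR-30c genes are printed because a read that fits both places was assigned to no gene. Capitals mark their longest shared run, 28 nt, which covers the whole of miR-30c-5p.
Mir30c-1, chr4:120769534-120769622, minus strand: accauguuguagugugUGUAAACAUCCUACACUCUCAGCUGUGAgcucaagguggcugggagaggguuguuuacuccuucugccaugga
Mir30c-2, chr1:23291701-23291784, plus strand: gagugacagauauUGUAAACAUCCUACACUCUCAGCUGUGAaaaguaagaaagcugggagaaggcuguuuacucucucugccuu

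The hairpins of Mir30e and Mir30a shared at most 18 nt, and each miR-30c hairpin shared 12 nt with each of those. Outside the family the longest run that any of the 4 hairpins shared with another hairpin of the table was 11 nt.

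The libraries had 5052766 reads in replicate 1 and 7441784 in replicate 2, of which 2323450 and 3487183 lay on the sense strand of miRNA genes. Levels are given as CPM, the sense count of a gene scaled to a total of 1000000 sense counts, with exact Clopper-Pearson 95% intervals per library or the SD over the 2 pups (n = 2). Intervals cover counting error alone, and SDs rest on 2 littermates. PCR copies were not marked by molecular identifiers and were counted as separate reads, so the intervals may be too narrow. One read stands for one mature strand, so levels were not divided by gene length, and how many reads a given miRNA yields per molecule was not measured. The heart label was checked against miRNAs of cardiac muscle that lie in myosin genes: Mir208a, Mir208b and Mir499 together had 90110 CPM in replicate 1 and 88934 CPM in replicate 2. The muscle miRNA genes Mir1a-1, Mir133a-1 and Mir133a-2 were not in that list, and their counts were low. Endothelial Mir126a had 10.8% and 10.6% of sense counts and the smooth muscle pair Mir143 and Mir145a 9.83% and 10.2%. The 5 measured neuronal genes (Mir124a and Mir9 copies) had 0 counts. Reads that fit several copies were assigned to no gene, so this 0 does not show that neuronal miRNAs were absent. For the same reason the low counts of Mir1a-1, Mir133a-1 and Mir133a-2 do not show that those muscle miRNAs were scarce. Red cell miRNAs (Mir451a and Mir144) summed to 627 and 542 CPM, those of white cells (Mir223 and Mir150) to 363 and 348 CPM, and the liver miRNA Mir122 had 53.8 and 47.3 CPM. Of these lists, the epithelial one stood apart between the pups, with all of its 7 genes lower in replicate 1 and a sum of 208 CPM there against 631 CPM in replicate 2.

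The 6 genes together held 7.98% of sense counts in replicate 1 and 7.90% in replicate 2, a mean of 7.94% ± 0.0567 (SD, n = 2). With reads aligned to several places added to the denominator the mean was 4.43%, and the share of Mir30e was 2.56% in place of 4.59%. The interval ran from 7.95% to 8.02% in replicate 1, and in replicate 2 from 7.87% to 7.93%. All 6 genes passed 2 CPM in both hearts, as did 327 of all 1973 rows. The family was split into 3 abundant genes and 3 scarce ones: Mir30e, Mir30a and Mir30d made up 99.4% of its counts, and Mir30b, Mir30c-1 and Mir30c-2 the rest.

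**Figure D1:**
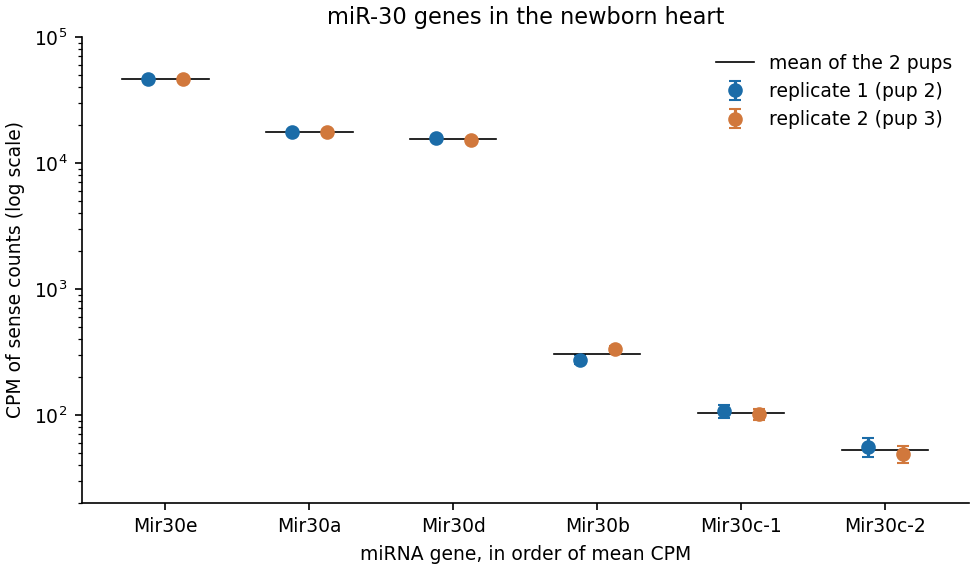
CPM of sense counts on a log axis for each miR-30 gene, in order of mean CPM; blue points are replicate 1, orange points replicate 2, with exact 95% counting intervals, and the black lines are means of the 2 pups. Mir30e, Mir30a and Mir30d lie above 10000 CPM in both hearts and the other 3 genes below 1000 CPM.

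Mir30e led the family. It had 107062 counts or 46079 CPM in replicate 1 (45810 to 46349) and 159681 counts or 45791 CPM in replicate 2 (45572 to 46011). It ranked 8 among all miRNA genes in both hearts and held 57.7% of the family's counts in replicate 1 and 57.9% in replicate 2. Both hearts were thus close to the mean of 45935 ± 204 CPM.

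Mir30a, on chromosome 1, had 41062 counts or 17673 CPM in replicate 1 and 61656 counts or 17681 CPM in replicate 2. Its ranks were 16 and 15, and its mean was 17677 ± 5.58 CPM. Mir30d, on chromosome 15, had 36350 counts or 15645 CPM in replicate 1 and 52577 counts or 15077 CPM in replicate 2, with rank 18 in both hearts and a mean of 15361 ± 401 CPM. Mir30a held 22.3% ± 0.166 of the family's counts and Mir30d 19.3% ± 0.367.

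Mir30b, the neighbour of Mir30d, had 637 counts or 274 CPM in replicate 1 (253 to 296) and 1157 counts or 332 CPM in replicate 2 (313 to 351). Replicate 1 was the lower, and its counting interval lay below that of replicate 2. Mir30c-1 had 247 counts or 106 CPM in replicate 1 (93.5 to 120) and 352 counts or 101 CPM in replicate 2 (90.7 to 112). Mir30c-2 had 129 counts or 55.5 CPM in replicate 1 (46.4 to 66.0) and 170 counts or 48.8 CPM in replicate 2 (41.7 to 56.7). For both miR-30c genes the intervals of the 2 hearts overlapped.

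The order Mir30e, Mir30a, Mir30d, Mir30b, Mir30c-1, Mir30c-2 was the same in both hearts. Mir30e exceeded Mir30a 2.61-fold in replicate 1 and 2.59-fold in replicate 2. The closest neighbours in level were Mir30a and Mir30d, at 1.13-fold and 1.17-fold, a gap of 2028 and 2604 CPM that was larger than the SD of either gene. Mir30d exceeded Mir30b 57.1-fold and 45.4-fold. Mir30b exceeded Mir30c-1 2.58-fold and 3.29-fold, and Mir30c-1 exceeded Mir30c-2 1.91-fold and 2.07-fold. Every step of the order was thus larger than the spread between the pups, and no test was made, because an exact sign flip over 2 pups cannot reach a small p-value.

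The low counts of Mir30c-1 and Mir30c-2 are uncertain. Reads aligned to several places were 36.6% of all reads in replicate 1 and 37.1% in replicate 2 and were assigned to no gene. A read that matches miR-30c-5p exactly fits both genes and so was counted at neither. The counts of the pair, and the order of its genes, therefore need not follow the level of miR-30c. How many reads of the pair were left out in this way was not tested. Over the series, 307 genes that averaged at least 2 CPM had a mature entry in the RefSeq table, and 40 of them held a mature sequence that was also entered for another gene. None of these 40 was among the 19 genes of the 307 at 10000 CPM or more; their highest level was 2825 CPM, and their median was 68.3 CPM against 85.8 CPM for the others. The limit of 2 CPM left out genes by level before these levels were compared, so genes with fewer reads are not covered. Mir30b was not in that comparison. Mir30e and Mir30a differ by 1 letter in each strand, and how many mismatches the alignment allowed was not given in the sources used here.

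**Figure D2:**
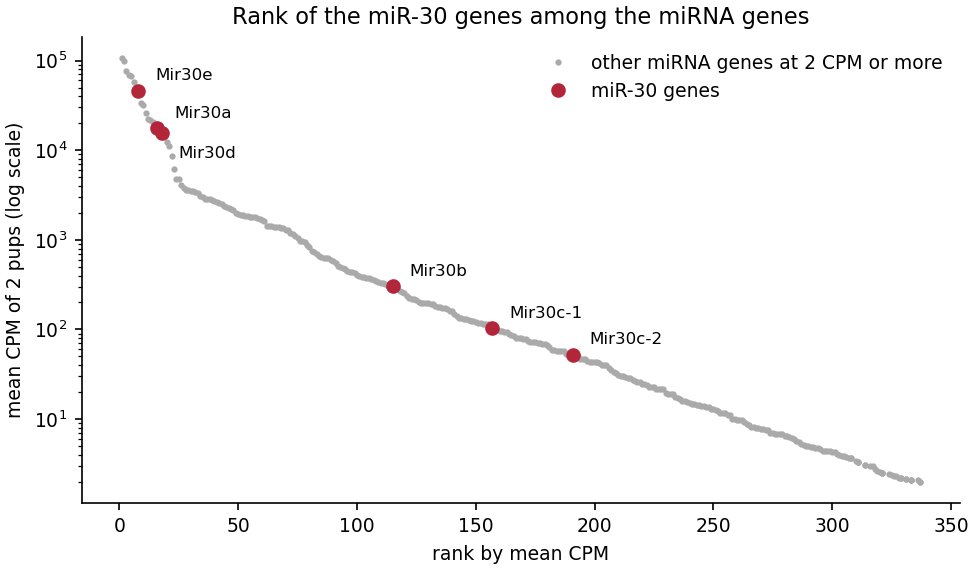
Mean CPM of the 2 pups (log axis) against rank for the 338 miRNA genes that averaged at least 2 CPM, with the miR-30 genes in red. Mir30e, Mir30a and Mir30d stand at ranks 8, 16 and 18, and Mir30b, Mir30c-1 and Mir30c-2 at ranks 115, 157 and 191.

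By locus, the chromosome 4 pair held 58.0% ± 0.153 of the family's counts, the chromosome 1 pair 22.3% ± 0.160 and the chromosome 15 pair 19.7% ± 0.313. Mir30e (120772606 to 120772697) and Mir30c-1 (120769534 to 120769622) lie on the minus strand of chromosome 4, 2983 nt apart, in GENCODE M21 on GRCm38. No annotated exon of Nfyc overlaps either, and both fall in the intron between the exons that start at 120768726 and 120773672. Mir30d (68341208 to 68341289) and Mir30b (68337415 to 68337510) lie on the minus strand of chromosome 15, 3697 nt apart. Mir30d lies wholly in an exon of the long noncoding gene Gm20732, and the first 9 nt of it on the genome also overlap Gm37296, while Mir30b overlaps the noncoding gene Gm26621 by 16 nt. Mir30a (23272269 to 23272339) and Mir30c-2 (23291701 to 23291784) lie on the plus strand of chromosome 1, 19361 nt apart. Mir30c-2 lies wholly in an exon of the long noncoding gene Gm27028, and no annotated gene overlaps Mir30a.

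At each locus the gene that comes first in the direction of transcription had the higher count. The log2 ratio of Mir30e over Mir30c-1 was 8.76 in replicate 1 and 8.83 in replicate 2, a mean of 8.79 ± 0.0464 or 443-fold. The log2 ratio of Mir30a over Mir30c-2 was 8.31 in replicate 1 and 8.50 in replicate 2, a mean of 8.41 ± 0.133 or 340-fold. The log2 ratio of Mir30d over Mir30b was 5.83 in replicate 1 and 5.51 in replicate 2, a mean of 5.67 ± 0.232 or 50.9-fold. The first and second of these ratios have a miR-30c gene as denominator and share the uncertainty given above. Mir30b and Mir30d were not compared by sequence, so whether reads of Mir30b were lost in the same way was not tested.

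**Figure D3:**
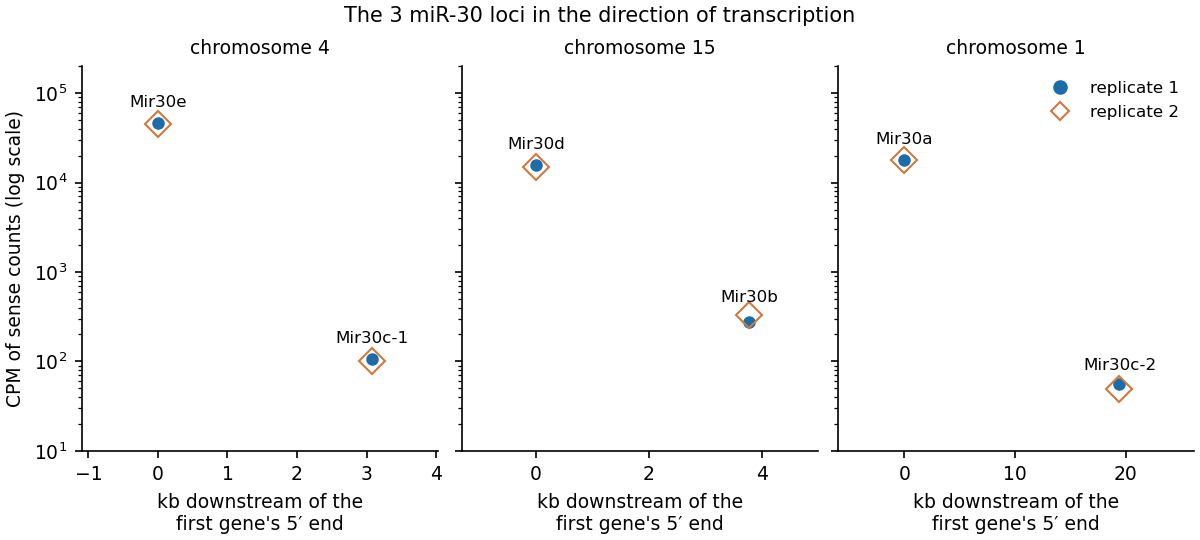
CPM of sense counts (log axis) against the distance in kb along the direction of transcription from the first gene's 5′ end, for the loci on chromosomes 4, 15 and 1; filled circles are replicate 1 and open diamonds replicate 2. The first gene of each pair is 50.9-fold to 443-fold above the second.

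All reads on the 6 genes were on their own strand. The opposite strand had 0 counts at each gene in both hearts, a limit of 1.29 CPM in replicate 1 and of 0.860 CPM in replicate 2 if 0 is read as up to 3 counts, while opposite strand reads were 6.62% and 6.67% of all counts on genes. Of the 338 genes that averaged at least 2 CPM, 21 had any opposite strand read, so the miR-30 genes shared their 0 with most genes. At Mir30e the opposite strand is that of another annotated gene, as GENCODE M21 places Mir30f on the opposite strand at the same coordinates. The RefSeq mature strand of Mir30f lies at chr4:120772621-120772642 on the plus strand; its first bases hold the letters of the family's seed shifted by 1 place, so that its own seed differs.
mmu-miR-30f: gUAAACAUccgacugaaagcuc

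Mir30f had no row of its own, and the 0 opposite strand reads in the Mir30e row set its level below those limits. Mir384, whose 5p strand has the family's seed, had 1 count in replicate 1 and 5 counts in replicate 2, or 0.430 and 1.43 CPM. That is below the level of every miR-30 gene taken by name.

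The 2 hearts were compared gene by gene with an exact two-sided binomial test on sense counts in which library sizes were scaled by TMM and p was adjusted by Benjamini-Hochberg over the 348 genes with at least 10 counts in sum. The test sets 2 libraries against each other at counting error, not conditions. It called 97 genes, or 27.9%, with 35 higher in replicate 1 (10.1%) and 62 lower (17.8%). It called 3 of the 6 miR-30 genes, Mir30d and Mir30e higher in replicate 1 and Mir30b lower. With 6 genes, 3 called is not far from the background. Of the 21 genes at 10000 CPM or more, to which Mir30e, Mir30a and Mir30d belong, 17 were called.

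Mir30d had a log2 ratio of replicate 1 over replicate 2 of 0.07 (95% counting interval 0.05 to 0.09; exact binomial test, adjusted p = 1.51e-11). Mir30e had a log2 ratio of 0.025 (0.014 to 0.037; exact binomial test, adjusted p = 5.15e-05), and this call was lost with scaling by library totals alone (log2 ratio 0.0090, adjusted p = 0.274, exact binomial test). Mir30b had a log2 ratio of -0.26 (-0.40 to -0.12; exact binomial test, adjusted p = 0.00137), the largest log2 ratio in the family in absolute size. The epithelial miRNAs were lower in replicate 1 as well, as given above, and their part in this difference was not tested. None of the 3 passed 1.5-fold, which 20 of the 348 genes (5.75%) did together with the test.

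The other 3 genes did not pass. Mir30a had a log2 ratio of 0.016 (-0.0023 to 0.034; exact binomial test, adjusted p = 0.229), Mir30c-1 one of 0.09 (-0.15 to 0.33; adjusted p = 0.667, exact binomial test) and Mir30c-2 one of 0.20 (-0.14 to 0.54; adjusted p = 0.491, exact binomial test). The intervals of the miR-30c genes are wide and that of Mir30a is narrow. The median absolute log2 ratio was 0.08 over the 6 genes, 0.11 over the 193 genes at 50 CPM or more, to which all 6 belong, and 0.16 over all 348.

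**Figure D4:**
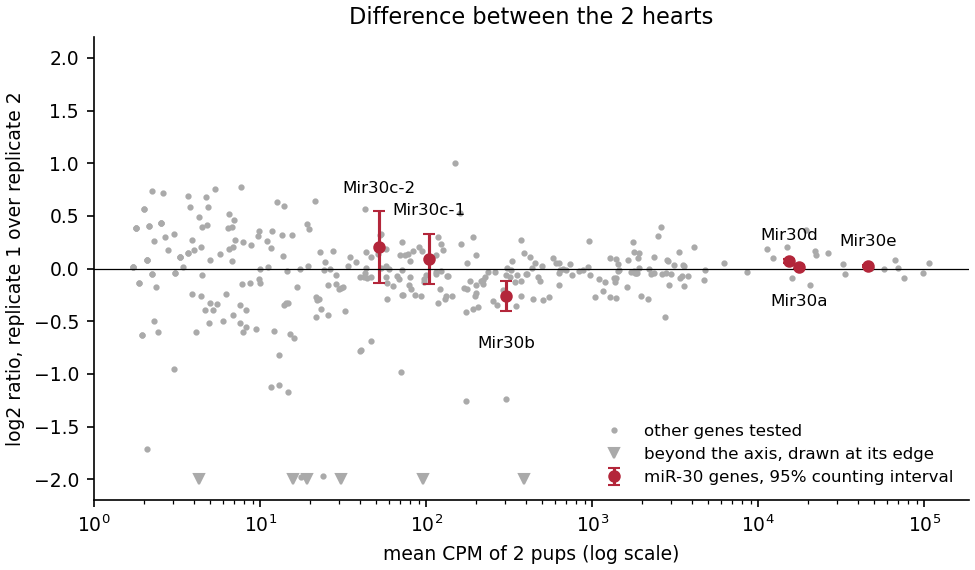
Log2 ratio of replicate 1 over replicate 2, with a pseudocount of 1 CPM, against mean CPM (log axis) for the 348 genes tested; miR-30 genes are in red with 95% counting intervals, and 6 other genes below -2 are drawn at the lower edge as triangles. The abundant miR-30 genes lie on or near 0, and Mir30b lies at -0.26.

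The coefficient of variation between the pups, the SD over the mean, was 0.0316% for Mir30a, 0.443% for Mir30e and 2.61% for Mir30d. Among the 21 genes at 10000 CPM or more, whose median was 3.47% and whose highest value was 17.0%, these were the lowest, the third lowest and rank 8 from the lowest. With 2 values per gene such a figure is itself very uncertain. It was 3.66% for Mir30c-1, 9.18% for Mir30c-2 and 13.4% for Mir30b, against a median of 5.58% over the 193 genes at 50 CPM or more. These coefficients rest on CPM, which is scaled by library totals. Under TMM scaling the log2 ratio between the pups was 0.016 for Mir30a, 4.6e-05 for Mir322 and 0.0076 for Mirlet7g. The lowest rank of Mir30a thus depends on the scaling.

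With 2 libraries no pattern across conditions could be matched, and likeness was measured as the distance of log2(CPM + 1) over the 2 libraries, members left out. Nearest to Mir30e were Mirlet7g (47641 CPM in replicate 1 and 47932 CPM in replicate 2, distance 0.08) and Mir322 (distance 0.46). Mir130a was near both Mir30a (distance 0.21) and Mir30d (0.15), with 15497 and 16680 CPM. The nearest to Mir30d was Mir208a, the miRNA in the alpha-myosin heavy chain gene, with 15926 and 13951 CPM (distance 0.11), and Mir351 was the second for Mir30a (0.30). Around the scarce genes these were Mir1193 and Mir362 for Mir30b, Mir1306 and Mirlet7a-2 for Mir30c-1, and Mir877 and the liver miRNA Mir122 for Mir30c-2, at distances of 0.05 to 0.14.

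Beside 3 other families with several loci, miR-30 had the second highest share over the genes with a row. Its 7.94% ± 0.0567 stood against 10.2% ± 0.0817 for let-7, which promotes differentiation (10 of 12 listed symbols had a row), 6.72% ± 0.0436 for miR-15/16 and its relatives, known to restrain the cell cycle (7 of 9), and 3.35% ± 0.116 for miR-26 (3 of 3). All 6 miR-30 genes had a row, so the let-7 and miR-15/16 sums cover only the listed symbols that had one. The log2 ratio of miR-30 over let-7 was -0.36 in both hearts (mean -0.36 ± 0.00129), over miR-15/16 it was 0.26 in replicate 1 and 0.23 in replicate 2, and over miR-26 it was 1.29 and 1.20. The leading gene held 57.8% ± 0.157 of the miR-30 counts, against 47.0% ± 0.580 for Mirlet7g in let-7, 85.6% ± 0.130 for Mir322 in miR-15/16 and 99.9% for Mir26b in miR-26. These differences are larger than the SDs over the pups. Reads with several alignments are missing from all of these sums, and each family has copied genes, so the families could stand in another order. The shares of the leading genes carry the same limit. In miR-26 the copied genes Mir26a-1 and Mir26a-2 had means of 9.90 and 40.2 CPM, so the share of Mir26b need not be its share of the miRNA made.

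**Figure D5:**
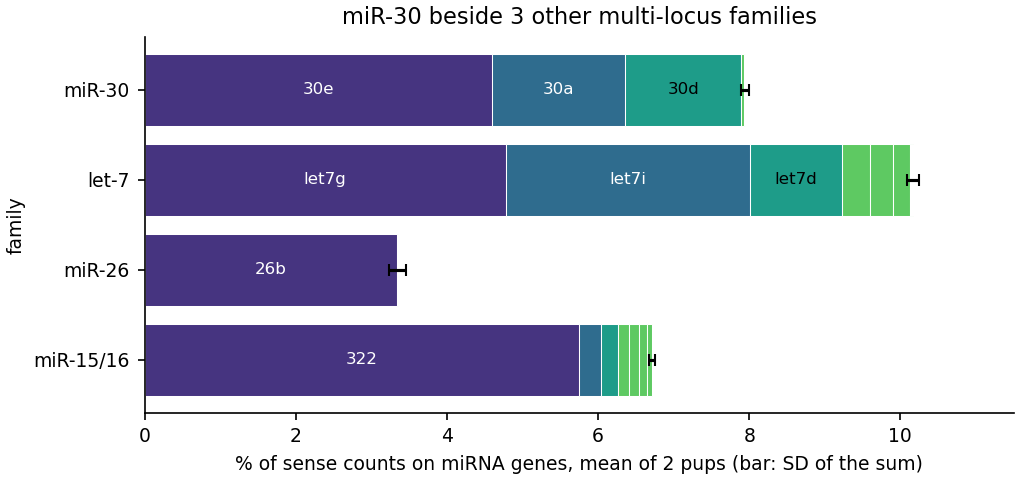
Percent of sense counts per family (horizontal axis, mean of the 2 pups) with each gene as a segment in order of level and genes over 0.9% named without the prefix Mir; black bars are the SD of the sum over 2 pups. The counts assigned to miR-30 genes are almost wholly those of Mir30e, Mir30a and Mir30d, and let-7 has the larger sum at 10.2%.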

How the data were processed

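Small RNA from 2 newborn hearts was measured in 1 library each. The authors deposited whole-number read counts per miRNA gene, not normalized, in 1 column each for the sense strand, the opposite strand and their sum. Per the labels, reads were placed on mm10, and per the deposited file descriptions the annotation was GENCODE M4; aligner, counter, trimming and mismatch settings are not given in the sources used here. The 4 summary rows, with 54.0% of replicate 1 reads and 53.1% of replicate 2 reads, were kept out of totals and tests.

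Sense counts were used. Gene identifiers were matched to GENCODE M21 on the same assembly (1894 of 1973 matched, the other 79 had 0 counts), and mature and hairpin sequences came from RefSeq. TMM factors came from edgeR 4.0.16 and the alternative size factors from DESeq2 1.42.0, in R 4.3.3; intervals came from scipy 1.17.1. edgeR's quasi-likelihood test has no residual degrees of freedom between 2 single libraries, so exact binomial tests were made at an adjusted p threshold of 0.05. They measure differences between these libraries, which include technical ones. The test was checked on simulated data in which 200 genes were changed. There, estimating the scaling by TMM added calls among abundant genes that had not been changed. In the real libraries 20 of the 348 genes tested passed 1.5-fold with the test. How far the added calls of the simulation apply to them was not tested. Alternatives covered scaling, the count minimum, strand, denominator, pseudocount, gene length and each replicate left out.

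Genes named are the members, genes overlapping them, the 2 nearest in level to each, and comparison families; Mir384 and the neighbouring pairs were added after values were seen. Members, lists and rules were chosen with earlier results of these data known.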

Additional observations from a re-analysis of the deposited data

How the results depend on the processing

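Of 72 alternative values over 17 results, 54 kept their direction and side of the threshold or, where there was no test, moved by no more than the SD over the pups or, for a count, by no more than 1.5 times. Some of these could not have moved. Leaving out either replicate always moves the mean by less than the SD over the pups. The ratios within the loci are the same on counts of both strands, because the members had no opposite strand counts. The miR-30 share of sense counts was 4.43% with reads aligned to several places in the denominator and 7.42% on counts of both strands, and 7.90% to 7.98% with either replicate left out. The members' own shares moved in the same way. The log2 ratio of Mir30e over Mir30c-1 was 8.74 per nt of annotated gene and 8.72 with 5 CPM added, and that of Mir30a over Mir30c-2 was 8.65 per nt. With either replicate left out these ratios ranged from 8.76 to 8.83 and from 8.31 to 8.50, and that of Mir30d over Mir30b from 5.51 to 5.83. The 3 miR-30 genes that differed between pups were 2 under library totals alone, where Mir30e did not pass, and 0 with a minimum of 1.5-fold, a limit chosen after seeing the data. Mir30a, not called under any of these settings, reversed to -0.00064 under library totals. Greater depth would not place a read that fits several genes, and at Mir30c-1 and Mir30c-2 the low counts widen the intervals. No paired analysis was possible because there was 1 group.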

Other observations

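Neighbouring miRNA genes are often cut from 1 transcript, so the gap between the genes of each miR-30 locus was set beside other neighbours on the same strand, a comparison chosen after the values were seen. Among genes that averaged at least 2 CPM, 108 consecutive pairs lay within 25 kb of each other with counts in both hearts. The miR-30 pairs ranked 3 (Mir30e and Mir30c-1), 4 (Mir30a and Mir30c-2) and 18 (Mir30d and Mir30b) by the absolute log2 ratio within the pair. The median absolute log2 ratio was 8.41 over the 3 miR-30 pairs and 2.58 over the 105 others. The largest ratios were those of Mir20a over Mir19b-1 (9.38) and Mir99a over Mirlet7c-1 (9.19), and further down Mirlet7a-1 stood below Mirlet7d by a log2 ratio of -6.60. The upstream gene was the higher in all 3 miR-30 pairs and in 57 of the 105 others (54.3%). Pairs of 1 cluster share genes, so they are not independent, and the part of reads aligned to several places in these ratios was not tested. In the pairs ranked 3 and 4 the lower gene is a miR-30c gene, at which exact miR-30c-5p reads were not counted. Their ranks and the median over the miR-30 pairs therefore do not measure unequal output of a locus.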
